A study of Mus musculus with 3 samples.

Results

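The Prss and Tmprss genes of the mouse encode trypsin-like serine proteases and their relatives. They were taken here as every gene whose symbol is Prss followed by a digit, or starts with Tmprss. This gave 57 genes of the 36809 in the expression tables: 40 with a Prss symbol, of which Prss23os is noncoding, and 17 with a Tmprss symbol. All 57 such symbols of the reference annotation were found in the tables, on 14 chromosomes. Levels were measured by RNA sequencing in testis, brain and liver of male C57BL/6 mice aged 11 weeks, with no allele or treatment named in any group. There was 1 library per tissue, made from polyadenylated RNA with a strand-specific protocol, so every tissue difference lacks a replicate check, and no p-value is given. Which animals gave the RNA, and whether animals were pooled, is not given in the sources used here. The values are FPKM, fragment numbers corrected for transcript length and library size, each with the lower and upper bound the authors deposited, given here in parentheses. These bounds describe the estimate within 1 library and not the spread between animals.

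Trypsin-like proteases cut proteins with an active-site serine that works together with a histidine and an aspartate. Most are made as inactive precursors, and some relatives have lost the catalytic residues and act in other ways. In the male germ line several of them sit in the acrosome, the secretory vesicle of the sperm head, or on the sperm surface, and mouse knockouts tie some to sperm maturation and to the passage of sperm into the oviduct. Elsewhere the family is known for digestion, for synapse remodelling, for the control of iron uptake and for the surfaces of epithelia. Tmprss proteins are mostly type II transmembrane proteases, held in the cell membrane by a stretch near their start.

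The stretches around the codon of the active-site serine, or around a match with another middle codon, are shown for members that recur in the results. Prss37, Prss45 and Prss54 have another middle codon, and that of Prss37 was not shown to lie at the serine's position. The stretches separate 2 forms of serine codon and members that have neither. They were read from GENCODE M21 transcripts (GRCm38), 5′ to 3′ on the coding strand, with the middle codon in capitals.
Prss39 (chr1:34502624-34502656, plus strand): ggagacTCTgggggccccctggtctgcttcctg
Prss40 (chr1:34552777-34552809, minus strand): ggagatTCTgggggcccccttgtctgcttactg
Prss42 (chr9:110802995-110803027, plus strand): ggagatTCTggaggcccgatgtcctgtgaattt
Prss44 (chr9:110817089-110817121, plus strand): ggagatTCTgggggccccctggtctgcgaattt
Prss45 (chr9:110840845-110840877, plus strand): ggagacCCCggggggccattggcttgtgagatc
Prss55 (chr14:64075762-64075794, minus strand): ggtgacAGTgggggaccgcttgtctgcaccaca
Prss51 (chr14:64097367-64097399, plus strand): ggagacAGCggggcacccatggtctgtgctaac
Prss52 (chr14:64113467-64113499, plus strand): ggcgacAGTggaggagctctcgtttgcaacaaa
Prss37 (chr6:40514976-40515023, minus strand): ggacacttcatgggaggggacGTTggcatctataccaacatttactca
Prss54 (chr8:95559790-95559822, minus strand): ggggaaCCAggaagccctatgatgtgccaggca
Prss12 (chr3:123506351-123506398, plus strand): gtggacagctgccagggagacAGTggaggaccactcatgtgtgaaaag
Tmprss6 (chr15:78440340-78440372, minus strand): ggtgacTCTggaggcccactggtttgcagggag

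The pattern searched, in frame and on the coding strand, was a run of 4 codons. It was either a glycine codon, an acidic codon (for aspartate or glutamate), a serine codon and a glycine codon, or an acidic codon, a serine codon and a pair of glycine codons, where the serine codon is TCN, AGC or AGT; a gene may match both forms. It was present in 47 of the 56 protein-coding members (83.9%) and in 1029 of 21853 protein-coding genes of the annotation (4.71%). The codon was TCN in 37 members and AGC or AGT in 10. All 17 Tmprss genes had the pattern, 11 with TCN and 6 with AGC or AGT. The 9 members without it were Prss16, Prss23, Prss35, Prss37, Prss45, Prss46, Prss50, Prss54 and Prss58. Prss16, the thymus-specific serine protease, belongs to another protease family, and Prss37 and Prss54 are known as proteins without the full catalytic triad. A match describes these letters and was not a test of enzyme activity.

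Most of the family's summed level lay in testis. At 1 FPKM or more stood 23 of the 57 members in testis (40.4%), 3 in brain (5.26%) and 2 in liver (3.51%). Over all genes the same minimum was reached by 42.9% in testis, 40.3% in brain and 30.3% in liver, and over protein-coding genes by 57.9%, 58.5% and 43.9%. The members' share in testis was thus near that of all genes and below that of protein-coding genes, and in brain and liver it was below both. The 23 members found at this level in testis were each under 1 FPKM in brain and in liver, and no member reached 1 FPKM in all 3 tissues. Summed FPKM of the members was 692 in testis, 15.9 in brain and 37.7 in liver. The members that code for protein, without Prss23os, held 0.119% of the testis library's protein-coding FPKM, 0.00457% of that of brain and 0.00615% of that of liver. The median member level was 0.200 FPKM in testis, 0.0181 FPKM in brain and 0 FPKM in liver, and 30 members were under 1 FPKM in every library. In bulk tissue, fewer cells of a type and less RNA per cell cannot be told apart.

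**Figure D1:**
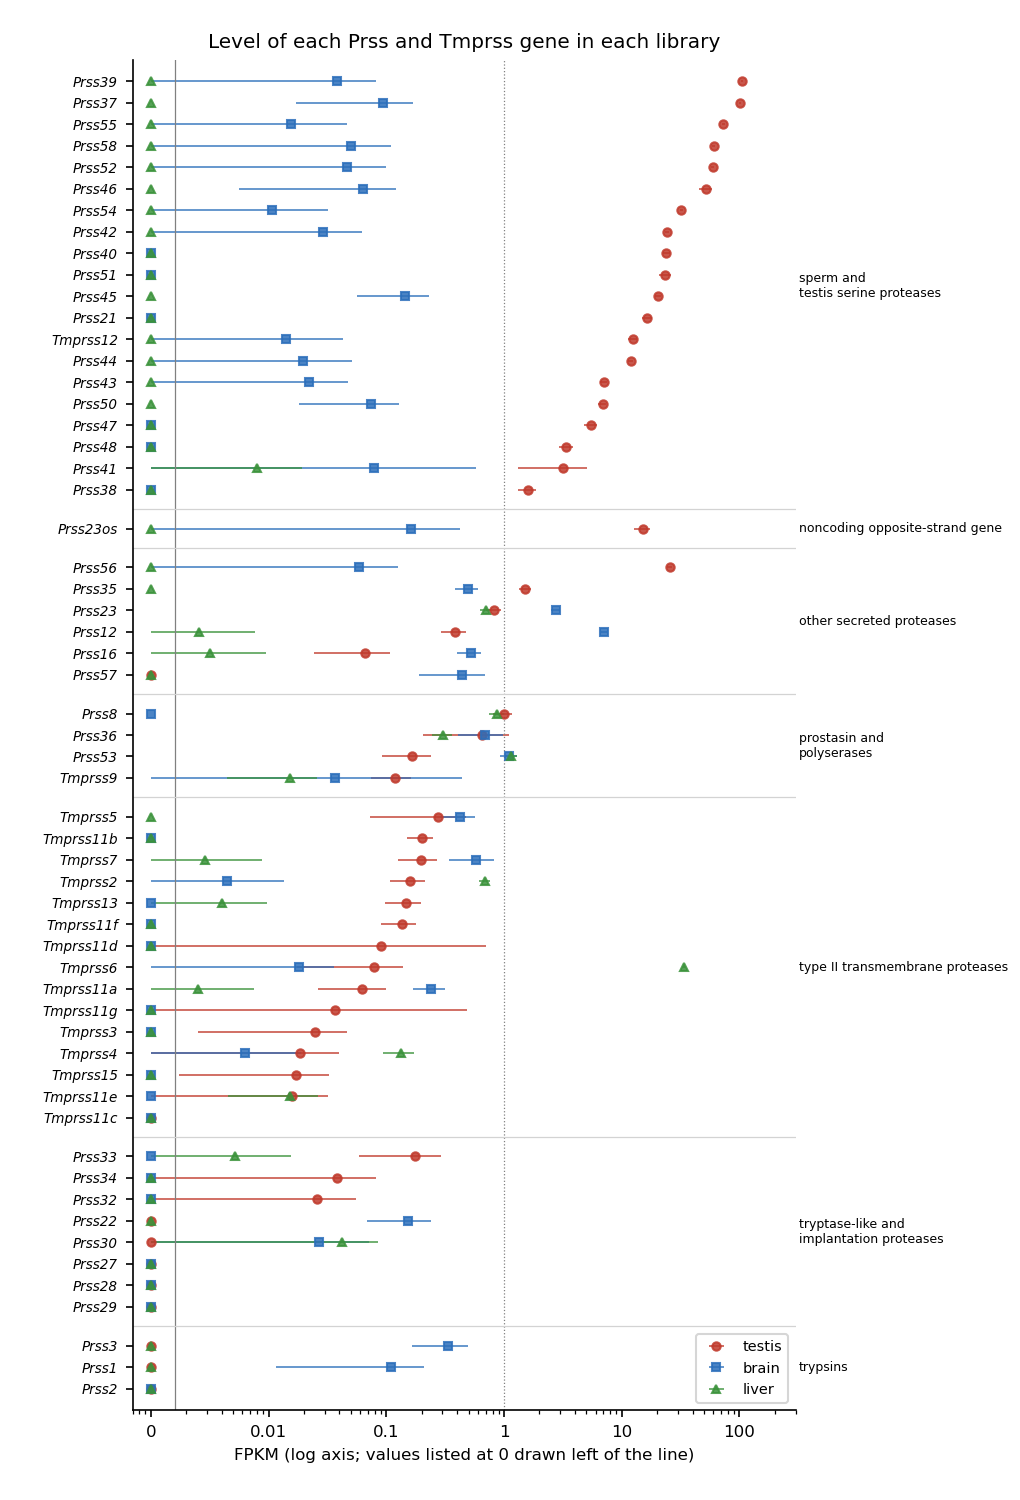
FPKM of the 57 members, 1 row each, in testis (circles), brain (squares) and liver (triangles) on a log axis, grouped by role; lines are the deposited lower and upper bounds, and values listed at 0 are drawn left of the grey line. The testis points of the 19 members from Prss39 (106 FPKM) to Prss47 (5.47 FPKM) lie at the right with brain and liver at or near 0, while Tmprss6 is high in liver (33.8 FPKM) and Prss12 in brain (7.09 FPKM).

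A difference was called where log2(FPKM + 1) differed by at least 2, a 4-fold change on that scale, and the deposited bounds of the libraries did not overlap. By this rule 20 members were higher in testis than brain (35.1%), against 11.0% of all genes and 14.2% of protein-coding genes, and 1 was lower, against 7.19% of all genes and 10.4% of protein-coding genes. Between testis and liver 21 were higher (36.8%), against 15.2% of all genes and 20.2% of protein-coding genes, and 1 was lower, against 3.82% of all genes and 5.96% of protein-coding genes. Between brain and liver 1 member was higher in brain, against 9.15% of all genes and 13.7% of protein-coding genes, and 1 was lower, against 2.79% and 4.55%. The median member difference was 0.18 for testis minus brain and 0.22 for testis minus liver on the log2(FPKM + 1) scale; over all genes the medians were 0.00 and 0.02, and over protein-coding genes 0.00 and 0.23, so against liver the median member did not exceed the median protein-coding gene. These comparisons share libraries: the testis library enters the first 2 of them, and 20 members were higher there than in both other tissues. Rescaling the libraries to their protein-coding FPKM sum moved the median difference of all genes by -0.49 between testis and brain, by 0.03 between testis and liver and by 0.63 between brain and liver, and then 20 members were higher in testis than brain and 20 than liver.

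Members at 5 FPKM or more in 1 tissue and under 0.5 FPKM in both others are called restricted to it below. Of the 57 members, 19 were restricted to testis (33.3%), against 5.53% of all genes and 6.11% of protein-coding genes. Prss12 alone was restricted to brain and Tmprss6 alone to liver, where 2.90% and 1.47% of protein-coding genes met the same rule. With limits of 1 and 0.1 FPKM, 0 members were restricted to brain. The testis-restricted member nearest the limit was Prss47, at 5.47 FPKM, and the next member below was Prss48, at 3.39 FPKM. Together the 19 genes held 677 FPKM, 97.9% of the members' testis sum, and the 5 highest members held 57.8%.

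**Figure D2:**
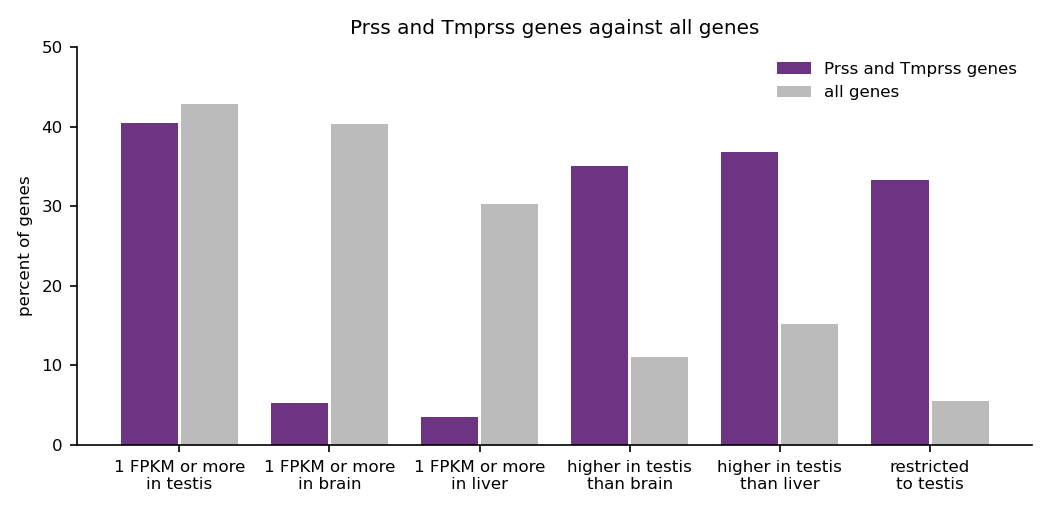
Percent of the 57 Prss and Tmprss genes (dark bars, left of each pair) and of all 36809 genes (grey bars) at 1 FPKM or more in each tissue, called higher in testis, and restricted to testis. At 1 FPKM in testis the bars are 40.4% and 42.9%, whereas restricted genes were 33.3% of the members and 5.53% of all genes.

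The acrosomal proteases Prss39 and Prss40, known in the mouse as TESP1 and TESP2, are neighbours on chromosome 1. Prss39 (ENSMUSG00000026125; mm9 chr1:34555275-34559907) was the highest member in testis, at 106 FPKM (104 to 108), against 0.0380 FPKM (0 to 0.0818) in brain and 0 in liver. It stood at rank 1016 among protein-coding genes in testis. Prss40, on the other strand, had 24.0 FPKM (22.3 to 25.6) in testis and was listed at 0 in brain and liver. The coding sequences of the pair were 70.4% identical over 1059 aligned bases, and both have TCT as the serine codon. The locus of Prss40 overlaps Cfc1 on the opposite strand, which was listed at 0 in all 3 libraries.

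Prss37, Prss55 and Tmprss12 are required in mice for the maturation of the sperm surface protein ADAM3 and for the passage of sperm into the oviduct. Prss37 (ENSMUSG00000029909; mm9 chr6:40464823-40469507) had 102 FPKM (99.2 to 104) in testis, 0.0937 FPKM (0.0172 to 0.170) in brain and 0 in liver. Prss55 (ENSMUSG00000034623) had 72.9 FPKM (70.5 to 75.3) in testis, 0.0155 FPKM (0 to 0.0466) in brain and 0 in liver. Tmprss12 was the lowest of these 3 genes in testis, at 12.4 FPKM (11.2 to 13.6), with 0.0140 FPKM (0 to 0.0426) in brain and 0 in liver. It was also the only Tmprss gene at 1 FPKM or more in testis. Differences of testis minus brain on the log2(FPKM + 1) scale were 6.55 for Prss37, 6.19 for Prss55 and 3.72 for Tmprss12.

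The other genes of this maturation pathway, 14 measured of 15 listed, were all at 1 FPKM or more in testis. Of the 14, 11 were called higher in testis than in brain and 11 higher than in liver, none lower, against 11.0% and 15.2% of all genes. The median log2(FPKM + 1) differences were 6.17 and 6.61, against 0.00 and 0.02 over all genes. These genes were listed for known roles in sperm maturation, so the choice of list favoured testis and the counts are description only. Adam3 itself had 670 FPKM in testis, 1.21 FPKM in brain and 0.0112 FPKM in liver, and Clgn, a testis chaperone of the endoplasmic reticulum, had 490, 5.74 and 0.00638 FPKM in the same order. Tpst2, a tyrosine sulphotransferase, was not called, at 2.43 FPKM in testis, 5.16 FPKM in brain and 8.20 FPKM in liver. The testis estimate of Calr3, another chaperone, is marked as failed in the deposited table, with a lower bound of 0.

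Prss42, Prss44, Prss43, Prss45, Prss46 and Prss50 form an uninterrupted run on chromosome 9 (mm9 chr9:110700670-110767132, 66.5 kb), all on the plus strand and with no other gene of the tables inside. All 6 were restricted to testis. In genomic order their testis levels were 24.3, 11.9, 7.02, 20.3, 52.0 and 6.87 FPKM, a range of 7.57-fold, and their sum was 122 FPKM. Prss42 and Prss43 are linked to germ cell survival in meiosis from work on cultured mouse testis, and PRSS50, also called TSP50, is a cancer-testis antigen in human. The brain levels of the 6 genes ran between 0.0196 and 0.143 FPKM, and in liver all 6 stood at 0. Prss46 had the widest bounds, 45.2 to 58.8 FPKM. Read as counting error only, they imply about 236 fragments, against 2586 for the 24.3 FPKM (23.3 to 25.2) of Prss42. In brain the 0.0640 FPKM of Prss46 implied about 5 fragments, so 236 is too low a number for 52.0 FPKM. The nearest gene after the run, Tmie, lies 1.08 kb on and had 0.821 FPKM in testis, 2.31 FPKM in brain and 4.47 FPKM in liver; the nearest before it, Myl3, lies 28.4 kb away and had 0.226, 0.0536 and 0.0167 FPKM. In this run Prss42, Prss43 and Prss44 had the serine codon TCT, and Prss45, Prss46 and Prss50 had no match to the pattern with a serine codon.

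A second dense run, of Prss55, Prss51 and Prss52, spans 38.3 kb of chromosome 14 (mm9 chr14:64694275-64732592). Its members had 72.9, 23.5 and 59.3 FPKM in testis, together 156 FPKM. Prss51, listed at 0 in brain and liver, had bounds of 20.6 to 26.3 FPKM in testis. Prss52 had 57.4 to 61.2 FPKM in testis, against 0.0460 FPKM (0 to 0.0992) in brain and 0 in liver. These 3 neighbours shared the rarer AGC or AGT form of the serine codon, as the stretches above show. Before the run, the nearest protein-coding gene, Rp1l1, lies 40.4 kb away and had 0.0117 FPKM in testis, 0.00200 FPKM in brain and 0 FPKM in liver. The next, 4930578I06Rik, 87.7 kb away, was high in testis like the run, at 86.9 FPKM, against 0.0637 FPKM in brain and 0 in liver. After the run, Msra, a repair enzyme for oxidised methionine, lies 8.87 kb away and ran the other way, with 2.28 FPKM in testis, 13.5 FPKM in brain and 34.6 FPKM in liver.

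**Figure D3:**
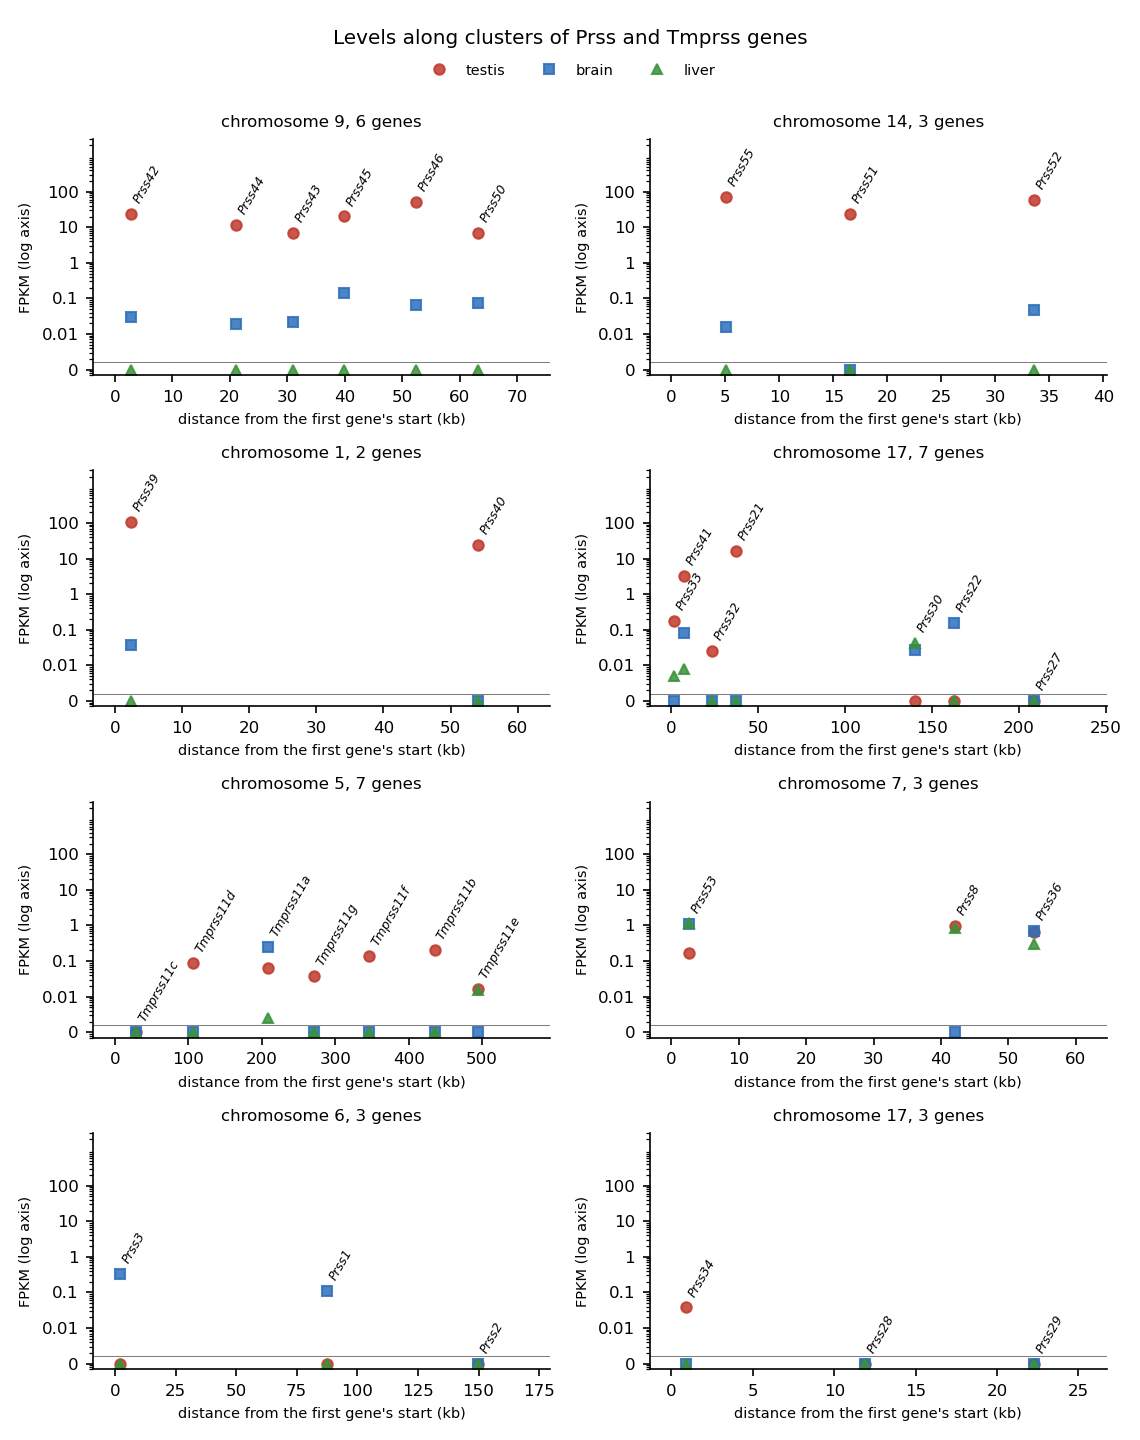
FPKM on a log axis against distance from the first gene's start, for 8 of the 10 clusters, runs of members at most 250 kb apart, with testis as circles, brain as squares and liver as triangles; values at 0 lie under the grey line. In the chromosome 9 run all 6 testis points lie between 6.87 and 52.0 FPKM, whereas the 7 Tmprss11 genes of chromosome 5 stay at or under 0.241 FPKM in every library.

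The 7 members spread over 213 kb of chromosome 17 (mm9 chr17:23970327-24182921) were not alike. Prss21, or testisin, a membrane-anchored protease of maturing sperm, had 16.5 FPKM (14.8 to 18.2) in testis and was listed at 0 in brain and liver. Prss41 had 3.20 FPKM in testis, with bounds of 1.32 to 5.09, 0.0786 FPKM in brain and 0.00799 in liver. Its testis bounds imply about 12 fragments, but its far lower liver level implied about 2, so the 12 is too low. Its difference was 2.06 against liver, past the threshold, and 1.96 against brain, just short of it; rescaled to protein-coding FPKM or by the median ratio, the difference against liver fell short too (1.94 and 1.85). Prss33 had 0.174 FPKM in testis, 0 FPKM in brain and 0.00515 FPKM in liver, and Prss32 had 0.0258 FPKM in testis and 0 in brain and liver. Prss30 and Prss22 were at 0 in testis, with 0.0269 and 0.153 FPKM in brain and 0.0424 and 0 FPKM in liver, and Prss27 was at 0 in all 3 libraries. The run thus held a high member beside others near 0, while the genes on its outer sides, Elob and Kctd5, were found in all 3 tissues, at 360 and 5.77 FPKM in testis.

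Of the members restricted to testis, 13 lay in 5 of the 10 clusters and 6 lay in none: Prss37, Prss47, Prss54, Prss56, Prss58 and Tmprss12. Prss58 had 60.5 FPKM (58.5 to 62.5) in testis, 0.0506 FPKM in brain and 0 in liver. Prss54, a sperm protein without the full triad, had 32.2 FPKM (31.1 to 33.4) in testis, 0.0107 FPKM in brain and 0 in liver. Prss56, in which mutations in mouse and human give small eyes, had 25.6 FPKM (24.3 to 27.0) in testis, 0.0583 FPKM (0 to 0.126) in brain and 0 in liver. Prss47 had 5.47 FPKM (4.82 to 6.11) in testis and was listed at 0 in brain and liver. Below the limit of 5 FPKM, Prss48 at 3.39 FPKM (2.91 to 3.87) in testis was called higher than in both other tissues, which it lost under median-ratio scaling (1.93 against each). Prss38 at 1.60 FPKM in testis was not called; both genes were listed at 0 in brain and liver, and the locus of Prss38 overlaps the opposite-strand gene Gm15755, at 3.25 FPKM in testis.

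Members without the serine pattern were among the highest in testis. Of the 18 protein-coding members restricted to testis, 12 had it and 6 did not, and of the other 38 members 35 had it and 3 did not. The 6 were Prss37, Prss58, Prss46, Prss54, Prss45 and Prss50, at 102, 60.5, 52.0, 32.2, 20.3 and 6.87 FPKM in testis. In Prss37 the letters matched around GTT, codon 215 of a 711-base coding sequence. The serine codon of Prss1 is codon 200 of 738 bases, so the Prss37 match lies nearer the end. Whether it stands at the serine's position was not tested. In Prss45 and Prss54 the surrounding letters could still be found, with CCC and CCA in place of a serine codon. Prss54 had 3 such matches, and the first along its coding sequence is the one printed above; the other two had GCA and GGT. These numbers describe 56 genes and were not tested.

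Prss23os is a noncoding gene of 1 short stretch (mm9 chr7:96658533-96659000) inside the locus of Prss23 and on the other strand. It had 15.1 FPKM (12.6 to 17.5) in testis, 0.161 FPKM (0 to 0.420) in brain and 0 in liver. Prss23, a secreted protease, ran in another order, at 0.824 FPKM (0.706 to 0.942) in testis, 2.75 FPKM (2.53 to 2.97) in brain and 0.705 FPKM (0.630 to 0.781) in liver. Its log2(FPKM + 1) difference of -1.04 for testis minus brain was short of the threshold. The libraries kept strand, but whether counting used it is not given in the sources used here, so reads of the 2 genes might not have been told apart. In all, 14 members overlap another gene's locus, among them 3 of the testis-restricted ones, Prss23os, Prss40 and Prss52.

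In brain the leading member was Prss12, or neurotrypsin, a synaptic protease that cleaves agrin. Prss12 (ENSMUSG00000027978; mm9 chr3:123149831-123209520) had 0.383 FPKM (0.292 to 0.473) in testis, 7.09 FPKM (6.70 to 7.48) in brain and 0.00256 FPKM (0 to 0.00767) in liver. It was the 1 member lower in testis than brain (-2.55 on the log2(FPKM + 1) scale) and the 1 member higher in brain than liver (3.01). Its substrate Agrn had 0.583 FPKM in testis, 8.56 FPKM in brain and 2.10 FPKM in liver. Among 10 receptors and substrates of such proteases, Agrn was the 1 gene lower in testis than brain, near the 7.19% of all genes, and none was higher. In the same list 3 were lower in testis than liver, against 3.82% of all genes, and 2 were lower in brain than liver, against 2.79%. The neuronal serpin Serpini1 had 1.45 FPKM in testis, 47.0 FPKM in brain and 0.119 FPKM in liver. The third member at 1 FPKM or more in brain, after Prss23, was Prss53, a protease with repeated catalytic units, at 0.167 FPKM (0.0922 to 0.242) in testis, 1.11 (0.928 to 1.29) in brain and 1.15 (1.02 to 1.28) in liver. Prss53 lies in a cluster of chromosome 7 with Prss8, prostasin, an activator of the epithelial sodium channel, and Prss36. Prss8 had 0.998 FPKM in testis, 0 FPKM in brain and 0.866 FPKM in liver, and Prss36 had 0.651, 0.694 and 0.304 FPKM in testis, brain and liver. Prss53 and Prss8 overlap the opposite-strand genes Zfp646 and Kat8, at 20.7 and 57.9 FPKM in testis, and neither was called in any comparison.

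In liver most of the family's sum came from Tmprss6, or matriptase-2, which cleaves hemojuvelin and so lowers hepcidin, the hormone that limits iron uptake. Tmprss6 (ENSMUSG00000016942; mm9 chr15:78270098-78299064) had 0.0789 FPKM (0.0175 to 0.140) in testis, 0.0181 FPKM (0 to 0.0363) in brain and 33.8 FPKM (32.9 to 34.7) in liver. On the log2(FPKM + 1) scale testis differed from liver by -5.01, and brain from liver by -5.09. Of 15 measured genes of the hepcidin pathway, 3 were lower in testis than liver, against 3.82% of all genes, and 5 were lower in brain than liver, against 2.79%, with medians of -0.82 and -0.07 on that scale. Another 2, Id1 and Smad7, were lower in testis than brain, against 7.19% of all genes, and none was higher in these comparisons. Hepcidin itself, Hamp, had 0.694 FPKM in testis, 0.644 FPKM in brain and 2796 FPKM in liver. The hemojuvelin gene, listed as Hfe2, had 2.93 FPKM in testis, 0.326 FPKM in brain and 13.7 FPKM in liver, and the transferrin receptor Tfr2 had 0.705, 0.564 and 36.8 FPKM in the same order. Of the 3 other transmembrane proteases of this class measured, 1 was lower in testis and in brain than in liver, against 3.82% and 2.79% of all genes. Another 1 was higher in testis than in brain and in liver, against 11.0% and 15.2%. With 3 genes, these counts do not describe the class. Hpn, or hepsin, was the one highest in liver, at 0.0408 FPKM in testis, 0.459 FPKM in brain and 111 FPKM in liver. Corin, which activates natriuretic peptides, had 3.96 FPKM in testis, 0.0147 FPKM in brain and 0.0442 FPKM in liver.

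Prss35, a relative of Prss23, was the last of the 23 members at 1 FPKM or more in testis, at 1.51 FPKM (1.33 to 1.69), with 0.493 FPKM (0.387 to 0.599) in brain and 0 in liver, and was not called. Prss16, known from the thymus, had 0.0656 FPKM in testis, 0.520 FPKM (0.402 to 0.639) in brain and 0.00316 FPKM in liver. The remaining Tmprss genes were low throughout. Tmprss9, Tmprss13, Tmprss3 and Tmprss4 had 0.118, 0.147, 0.0246 and 0.0184 FPKM in testis, and the highest of their brain and liver values was 0.133 FPKM, for Tmprss4 in liver. Tmprss2, known for activating viral spike proteins, had 0.160 FPKM (0.107 to 0.212) in testis, 0.00445 FPKM (0 to 0.0134) in brain and 0.684 FPKM (0.608 to 0.759) in liver. Tmprss7 had 0.198 FPKM in testis, 0.578 FPKM in brain and 0.00286 FPKM in liver, and Tmprss5, or spinesin, had 0.275, 0.424 and 0 FPKM in the same order. The 7 genes Tmprss11a to Tmprss11g, known from epithelia of the airway and skin, occupy 514 kb of chromosome 5 and summed to 0.540 FPKM in testis, 0.241 FPKM in brain and 0.0178 FPKM in liver. Of these, the brain value came from Tmprss11a alone (0.241 FPKM), and Tmprss11b was the highest in testis, at 0.200 FPKM (0.149 to 0.250). Tmprss11c was listed at 0 in all 3 libraries, and the testis estimates of Tmprss11d (0.0896 FPKM) and Tmprss11g (0.0369 FPKM) are marked as resting on low data. Tmprss15, the enteropeptidase that activates trypsinogen in the gut, had 0.0171 FPKM in testis and 0 in brain and liver.

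The pancreatic trypsins Prss3, Prss1 and Prss2 (mm9 chr6:41323794-41475078) were listed at 0 in testis and in liver. In brain Prss3 had 0.332 FPKM (0.166 to 0.498), Prss1 had 0.110 FPKM (0.0116 to 0.209) and Prss2 had 0. The coding sequences of Prss1 and Prss3 are 96.3% identical and those of Prss2 and Prss1 89.6%, so reads could have been split between them, and these brain values are uncertain. Among 10 other digestive protease genes, 1 was higher in testis than brain, 2 were higher in testis than liver and 1 was lower in testis than liver. The shares of all genes were 11.0%, 15.2% and 3.82%, so the higher counts lay near the background. Of these, Try5 and Try4 from the same stretch of chromosome 6 had 4.81 and 3.02 FPKM in testis, 0 and 0.0223 in brain and 0 in liver. Prss28 and Prss29, the implantation proteases of the uterine gland, were at 0 in every library, and their neighbour Prss34, a protease of mast cells and basophils, had 0.0380 FPKM (0 to 0.0818) in testis and 0 in brain and liver. Prss57, a neutrophil protease, had 0 FPKM in testis, 0.441 (0.190 to 0.693) in brain and 0 in liver. The list of 17 mast cell, neutrophil and lymphocyte proteases summed to 0.874 FPKM in testis, 2.75 FPKM in brain and 1.34 FPKM in liver, with 9, 5 and 10 genes at 0 and none called. Its tryptase genes Tpsab1 and Tpsg1 were at 0 in all 3 libraries.

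Genes that act beside the acrosomal proteases were mostly higher in testis. They were listed for known roles in the acrosome, so the choice of list favoured testis and the counts are description only. Of 16 acrosome genes, 14 were higher in testis than brain and 14 higher than liver, against 11.0% and 15.2% of all genes, and none was lower, with median log2(FPKM + 1) differences of 6.07 and 6.38. Acr, the main acrosomal protease acrosin, had 81.9 FPKM in testis, 0.223 FPKM in brain and 0 FPKM in liver, below the 106 FPKM of Prss39 and the 102 FPKM of Prss37 in testis. Among 21 Kunitz and Kazal type inhibitors and related serpins, 1 was higher in testis than brain and than liver, and 2 were lower in testis than brain, with median differences of 0.00 and 0.05. These counts were near or below the shares of all genes, 11.0% and 15.2% higher and 7.19% lower. That higher one was Spink2, the acrosomal inhibitor of acrosin, at 1571 FPKM in testis, 1.45 FPKM in brain and 0.0148 FPKM in liver. The lower ones were Serpini1 and Serpine2. Spint2 had 46.0 FPKM in testis, 5.37 FPKM in brain and 12.4 FPKM in liver. Its testis estimate is marked as failed, with a lower bound of 0, so it could not be called. None of 13 kallikrein genes was called; Klk1 was the only one at 1 FPKM in testis (1.60 FPKM), and Klk8 led in brain (2.53 FPKM).

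Traces of the testis-restricted members were listed in brain but not in liver. All 19 were at 0 in liver, and in brain 4 were at 0 and 15 were above 0, the highest being Prss23os at 0.161 FPKM. The brain values correspond to about 1 to 11 fragments per gene, against 149 to 8612 fragments in testis. As a percent of the testis level they ran between 0.0213 and 1.07, and summed over the 19 genes the brain level was 0.124% of that in testis. Germ cell marker genes were also listed in brain. The 9 in the testis marker list had brain levels of 0.0474 to 0.272% of testis, and 0.0775% when summed. Among them Prm2 had 12924 FPKM in testis and 9.56 in brain. The members had a wider range and a higher summed share. Prss23os, Prss50, Prss45 and Prss43 lay above the highest marker, and Prss39, Prss54, Prss55 and the 4 members at 0 lay below the lowest. Unlike the markers, the members were chosen to be under 0.5 FPKM in brain, so the sets were not matched. In liver the same markers were between 0 and 0.00116% of testis. Their part in the brain values was not tested.

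**Figure D4:**
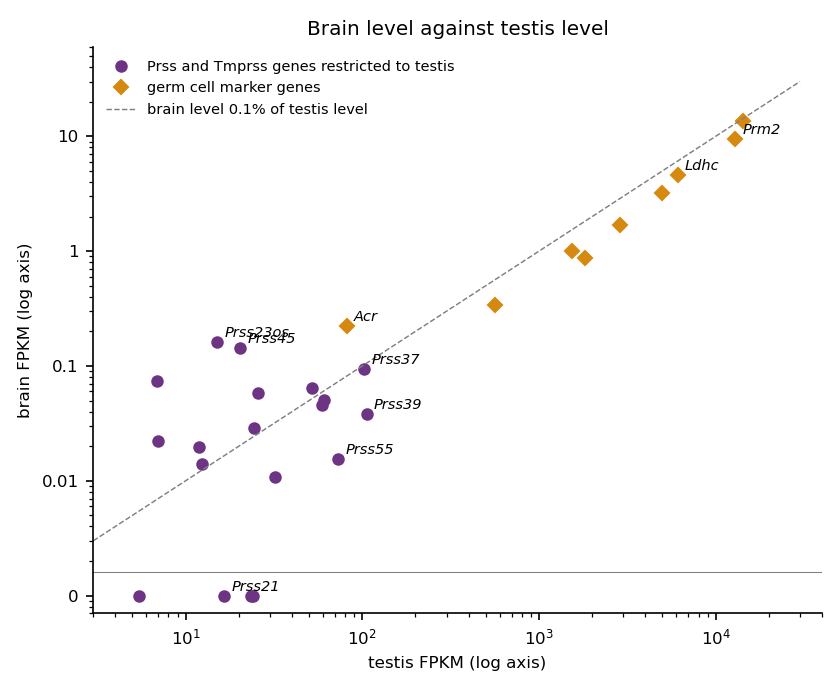
Brain FPKM against testis FPKM on log axes for the 19 testis-restricted members (circles) and 9 germ cell marker genes (diamonds); values at 0 in brain lie under the grey line and the dashed line marks a brain level of 0.1% of testis. The markers lie below the dashed line, from 0.0474 to 0.0940%, except Acr, which lies above it at 0.272%. The members scatter on both sides of it from 0.0213 to 1.07%, with 4 at 0.

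Promoter windows from RefSeq (GRCm38.p6) were matched for 41 of the 57 members, and the 250 bases before each start were searched. CpG dinucleotides numbered a median of 8 in the 13 testis-restricted members with a window, from 0 to 17.5, and a median of 2.5 in the 22 members under 1 FPKM in every library, from 0 to 10. Over all 27025 genes with a window the median was 6. At least 7 CpG, a limit chosen after the values were seen, stood in 10 of the 13 (76.9%), in 1 of the 22 (4.55%) and in 46.6% of all genes. The exceptions among the 13 were Prss37 with 1 CpG, Prss58 with none and Prss54 with 3, although Prss37 and Prss58 are among the highest members in testis. The remaining members with a window reached 1 FPKM in some library but were not restricted to testis. Of these, Prss12 had 15, Prss23 had 12, Prss38 had 9, Prss35 and Prss41 had 8 each, and Prss53 had 2. A count of 7 or more was thus not particular to the testis-restricted members. The 120 bases before the start are shown for Prss39 and Prss42, with each CG in capitals, for Prss58, which has none, and for the trypsin Prss1, at 0 in testis, with its TATAAA in capitals.
Prss39 (chr1:34498292-34498411, plus strand): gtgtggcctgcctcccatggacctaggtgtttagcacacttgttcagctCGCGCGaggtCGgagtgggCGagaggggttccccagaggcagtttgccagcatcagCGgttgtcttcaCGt
Prss42 (chr9:110798065-110798184, plus strand): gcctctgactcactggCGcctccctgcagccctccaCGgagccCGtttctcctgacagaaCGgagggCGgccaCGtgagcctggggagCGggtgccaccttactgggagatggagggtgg
Prss58 (chr6:40900388-40900507, minus strand): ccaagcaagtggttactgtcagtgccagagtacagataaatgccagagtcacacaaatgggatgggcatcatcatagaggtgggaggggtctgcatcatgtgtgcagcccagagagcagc
Prss1 (chr6:41458810-41458929, plus strand): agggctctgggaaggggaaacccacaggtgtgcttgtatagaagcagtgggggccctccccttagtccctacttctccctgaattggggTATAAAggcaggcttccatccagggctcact

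TATAAA, searched on both strands, stood in none of the 13 testis-restricted windows, in 5 of the 22 windows of members under 1 FPKM everywhere (22.7%) and in 14.3% of all genes. The 5 were the trypsins Prss1, Prss2 and Prss3 and the implantation proteases Prss28 and Prss29. TGACGT, the core of the cyclic AMP response element, stood in none of the 13, in 4 of the 22 (18.2%) and in 7.29% of all genes. CCAAT stood in 5 of the 13 (38.5%), against 37.5% of all genes, and GGGCGG in 2 of the 13 (15.4%), against 35.4%. These are counts of letters in a window; no binding was measured.

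**Figure D5:**
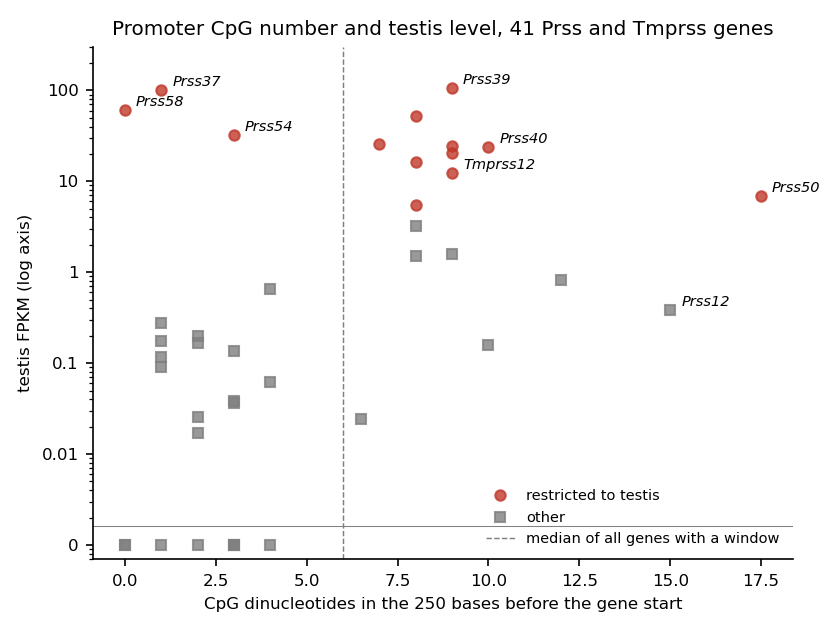
Testis FPKM on a log axis against the number of CpG dinucleotides in the 250 bases before the start, for the 41 members with a window, with testis-restricted members as circles and the others as squares; where a gene has several starts the median over them is drawn. Most circles lie right of the dashed line at 6, the median of all genes, and Prss58, Prss37 and Prss54 lie left of it.

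The libraries matched their labels. Of 14 testis marker genes 13 were at 1 FPKM or more in testis, and their FPKM summed to 46063 in testis, 36.5 in brain and 9.56 in liver. All 10 brain markers were lower in testis than brain, against 7.19% of all genes. All 10 liver markers were lower in testis than liver, against 3.82%. Between brain and liver, 9 of the 10 brain markers were higher in brain, against 9.15%, and 9 of the 10 liver markers were lower, against 2.79%. Not called there were Slc1a2, whose liver estimate is marked as failed, and Ttr, at 1625 FPKM in brain and 6286 FPKM in liver. The deposited bounds correspond to about 40.9 M fragments in testis, 31.8 M in brain and 86.4 M in liver, so a low member was seen most finely in liver, where 40 of the 57 were listed at 0, against 10 in testis and 23 in brain.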

How the data were processed

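The authors deposited 1 table per tissue (testis, brain, liver) of gene levels in FPKM with lower and upper bounds and a status. Per the submitters' processing notes these came from TopHat 1.4.0, Bowtie 0.12.5 and Cufflinks 2.0.0 on mm9; no gene annotation or read filter is named there. FPKM corrects for length and library total, so a few very high genes lower the rest. Tables held no other per-sample columns.

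From the deposited FPKM, differences were taken on log2(FPKM + 1), which understates changes of low genes. Fragment numbers were implied from the bounds, read as 95% intervals of counting error only. The headers name no level. Some bounds are wider than counting error, as for Prss46 and Prss41 in testis, and the implied number is then too low. Of 36809 identifiers in all tables, 31837 matched a GENCODE M21 symbol. Coding sequences came from M21 transcripts and promoters from RefSeq. Scripts used Python 3.11.15, pandas 2.3.3, numpy 2.4.6 and Biopython 1.88. The call rule was tested on simulated data.

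The members and the 12 gene lists (158 entries, 155 matched) were chosen with earlier results of these data known. Named members are the 12 highest in testis, the 6 highest in brain and in liver at 1 FPKM or more, those restricted to a tissue and those in clusters of 3 or more; others are named by role or as neighbours, after their values were seen. With 1 library per tissue no test was run. Alternatives varied the pseudocount, fold, bounds, minimum, status, scaling, restriction limits and cluster gap.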

Additional observations from a re-analysis of the deposited data

How the results depend on the processing

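Of 65 alternative counts, 52 stayed within 1.5 times the reported one, including every alternative for members higher in testis: 19 to 23 against 20 for brain, and 19 to 24 against 21 for liver. Members restricted to testis were 18 to 20, against 19. Of the 13 exceptions, 12 concern reported counts of 1 to 3 and 1 the count of members at 1 FPKM or more in testis, 23. With a pseudocount of 0.1 FPKM, 4 members were lower in testis than brain, 2 lower in testis than liver, 7 higher in brain than liver and 3 lower in brain than liver, each against 1. At a 2-fold limit, 2 were lower in testis than brain and 2 higher in brain than liver. A minimum of 0.1 FPKM found 36 members in testis, 15 in brain and 7 in liver; a minimum of 5 FPKM found 1 in brain and 1 in liver. Scaling to protein-coding FPKM left 1 in liver. With limits of 1 and 0.1 FPKM, 0 members were restricted to brain, since Prss12 had 0.383 FPKM in testis.

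Over 27 members at 1 FPKM or more, 243 single differences were recomputed; 231 kept their call, 4 lost it, 8 gained it and 0 reversed. Prss41 against liver fell short under protein-coding scaling (1.94) and median-ratio scaling (1.85), and Prss48 against both tissues under median-ratio scaling (1.93). The 8 gains came with the pseudocount of 0.1 FPKM, in Prss12, Prss35, Prss38, Prss41 and Prss53. No paired analysis was possible because each tissue has 1 library. Depth limits the low members most: the 15 traces of testis-restricted members in brain rest on about 1 to 11 fragments each.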
